A study of Mus musculus with 18 samples.

Results

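The genes described here encode the 3 large families of phase II conjugation enzymes: glutathione S-transferases (GST), UDP-glucuronosyltransferases (UGT) and cytosolic sulfotransferases (SULT). They were chosen by symbol alone, as the genes of the classes Gsta, Gstk, Gstm, Gsto, Gstp, Gstt, Gstz, Ugt1a, Ugt2a, Ugt2b, Ugt3a and Sult with a row in both deposited count tables. The rule leaves out pseudogenes and 2 genes of the Ugt1a class. This gave 56 genes of the 20058 names in both tables, 21 GST, 17 UGT and 18 SULT genes. A further 6 names of the families are in only 1 table (Gstp3, Sult2a8, Sult3a2, Sult6b2, Ugt1a8 and Ugt2a1) and are not members. For Sult2a8, Sult3a2 and Sult6b2 the female table has a row under an older name, so the match by symbol missed them. Sult2a8 is among the abundant genes of the families, with 97970 to 115489 counts per male library, while the other 5 had at most 807 counts per library in the table that lists the symbol.

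RNA-seq counts came from the livers of 18 mice aged 8 weeks, each with its own library, in 6 groups of 3 mice. In the first experiment C57BL6J mice received low-dose penicillin (LDP) from birth or no antibiotic: LDP males 8, 10 and 11, control males 5, 6 and 7, LDP females 39, 52 and 54, and control females 29, 30 and 32. These mice were weaned at week 4 and ate a high-fat diet (45% of energy) from week 6. The other experiment used Swiss Webster females raised germ-free, which were colonised at week 3 with gut microbiota from LDP females (LDP recipients 2, 5 and 8) or from control females (control recipients 1, 3 and 7). The recipients had no antibiotic themselves and also ate a 45% fat diet. Both recipient groups were germ-free until week 3, and the number of donor mice and the cages and litters of the mice are not stated in the labels, so a p-value here measures the spread between these mice only. The males are in one count table and all females in the other, so levels were not compared between the sexes.

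Phase II enzymes attach a water-soluble group to drugs, hormones, bile acids, bilirubin and products of gut bacteria, which lets the liver pass them into bile or urine. GSTs add glutathione to reactive electrophiles, UGTs add glucuronic acid from UDP-glucuronic acid inside the endoplasmic reticulum, and SULTs add sulfate from the donor PAPS in the cytosol. In mouse liver several of these genes are sex-biased, and many are controlled by receptors that sense foreign chemicals and bile acids (CAR, PXR, AHR, FXR), by NRF2, and by hepatocyte factors such as HNF1 and HNF4.

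The promoters of 4 members are shown for orientation, each 5′ to 3′ on the gene's own strand. Each window runs from 250 bases before to 50 bases after a transcription start (RefSeq, GRCm38.p6). Capitals mark the antioxidant response element core TGACNNNGC, bound by NRF2, the HNF1 motif GTTAAT and the TATA box TATAAA, on either strand. Gsta3 and Sult1a1 were among the higher genes in males and recipients, Ugt2a3 in recipients, and Sult2a5 was lower in LDP females. EdgeR called none of these 4 genes. All 4 windows hold an HNF1 motif, unlike most member windows, so they do not represent the members. The windows of Sult1c2 and Gstm2, also among the higher genes in recipients, held none of the marked motifs.
Gsta3, chr1:21240335-21240634, plus strand: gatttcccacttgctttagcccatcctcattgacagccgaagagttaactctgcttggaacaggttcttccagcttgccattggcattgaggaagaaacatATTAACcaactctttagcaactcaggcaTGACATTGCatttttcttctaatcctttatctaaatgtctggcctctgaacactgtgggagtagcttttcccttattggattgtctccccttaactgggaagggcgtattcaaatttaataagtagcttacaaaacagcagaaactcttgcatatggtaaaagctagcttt
Ugt2a3, chr5:87337146-87337445, minus strand: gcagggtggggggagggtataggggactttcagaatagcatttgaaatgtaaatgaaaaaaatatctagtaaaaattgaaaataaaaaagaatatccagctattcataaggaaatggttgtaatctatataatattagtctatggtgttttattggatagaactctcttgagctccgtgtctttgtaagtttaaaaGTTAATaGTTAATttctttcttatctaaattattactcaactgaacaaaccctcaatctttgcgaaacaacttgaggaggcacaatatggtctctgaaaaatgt
Sult1a1, chr7:126676369-126676668, minus strand: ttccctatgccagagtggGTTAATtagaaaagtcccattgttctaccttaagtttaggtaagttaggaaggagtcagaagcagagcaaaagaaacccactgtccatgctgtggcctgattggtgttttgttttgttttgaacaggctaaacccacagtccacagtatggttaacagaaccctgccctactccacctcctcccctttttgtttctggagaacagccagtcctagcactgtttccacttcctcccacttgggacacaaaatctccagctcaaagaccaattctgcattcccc
Sult2a5, chr7:13623717-13624016, plus strand: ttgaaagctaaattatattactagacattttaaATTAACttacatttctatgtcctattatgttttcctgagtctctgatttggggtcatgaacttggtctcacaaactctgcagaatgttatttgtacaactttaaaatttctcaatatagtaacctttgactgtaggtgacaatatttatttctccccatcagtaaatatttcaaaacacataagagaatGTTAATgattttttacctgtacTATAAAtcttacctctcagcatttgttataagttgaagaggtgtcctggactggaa
The Gsta3 window held an antioxidant response element core at position -121 from the start and an HNF1 motif at -149. The Ugt2a3 window held a pair of HNF1 motifs at -54 and -47, the Sult1a1 window one at -232, and the Sult2a5 window one at -217 and one at -28 with a TATA box at -6. A window was found for 49 members, 59 windows in all, and 12 of these held an HNF1 motif, while 7.1% of the 32851 RefSeq windows of this length did. The 12 include the close paralogs Sult2a3, Sult2a4, Sult2a5 and Sult2a6 and the pair Ugt1a9 and Ugt1a10, so they are not independent occurrences. The antioxidant response element core was in 3 member windows (Gsta3, Gstm5 and Gstm7) and in 12.4% of all windows. The HNF4 core CAAAGTCCA was in 1 member window (Sult1b1) and in 0.475% of all. The xenobiotic response element core GCGTG, bound by AHR, was in 11 member windows and in 32.4% of all, and the TATA box was in 10 and in 13.6%. The nuclear receptor motifs DR1 and DR4 (direct repeats of a hexamer) were in 0 member windows and in 0.0396% and 0.0152% of all windows. Such a match is a description of the letters in the window and not evidence that the factor binds there.

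Each male library held 70336366 to 74418889 counts and each female library 17937005 to 28646168. Levels are given as CPM, counts relative to the library size after TMM scaling within the 6 libraries of a comparison. Markers of hepatocytes were abundant in each library, from Alb to Cps1, with a summed level of 89370 to 191700 CPM over 7 markers. In bulk tissue, fewer cells of a type and less RNA per cell cannot be told apart.

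Among control males, where the deposited gene lengths allow levels to be compared between genes, the members ranged from 0 to over 1000 CPM per kilobase. Gstp1, the pi class GST and a known male-biased liver gene, was highest at 1035 ± 69.3 CPM per kilobase (SD, n = 3). It was followed by Gsta3, an alpha class enzyme that conjugates aflatoxin epoxide, at 666 ± 81.0, and its range of 578 to 737 did not reach that of Gstp1 (987 to 1115). The leading UGTs, which act on steroids and other lipophilic substrates, were Ugt2b5 at 432 ± 25.7, Ugt2b36 at 340 ± 20.9 and Ugt2b1 at 330 ± 28.6 CPM per kilobase. Ugt2b36 and Ugt2b1 differed by less than their spread. Gstz1, which acts in tyrosine breakdown, stood at 364 ± 11.9. Of the member SULTs the highest were the phenol sulfotransferase Sult1a1 at 140 ± 7.33, the catecholamine-sulfating Sult1d1 at 82.5 ± 12.4 and Sult5a1 at 14.9 ± 2.66. Sult2a8, which is not a member, stood above them at 606 ± 41.9 CPM per kilobase. At the other end, 6 hydroxysteroid sulfotransferase genes, Sult2a1 to Sult2a6, together had 1 count in 1 control male and 0 in the other 5 male libraries, while Sult2a7 had a level of 0.895 ± 0.149 CPM per kilobase. A count of 0 in the shallowest male library allows a level of up to 0.0427 CPM, taking 3 counts as the floor, which covers counting error only.

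**Figure D1:**
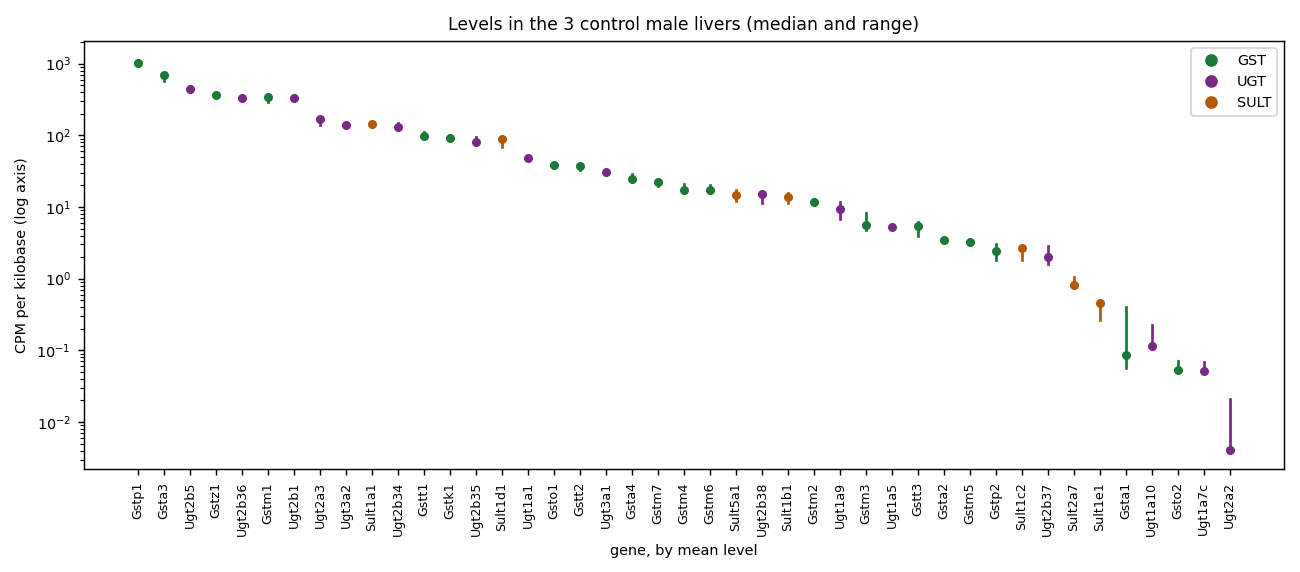
Level of the 43 members with counts in every one of the 3 control males, in CPM per kilobase on a log axis, ordered by mean; points are medians, lines the range of the 3 mice, and colours the families. GST and UGT genes fill the top ranks, led by Gstp1 at 1035 and Gsta3 at 666, and the highest SULT drawn is Sult1a1 at 140; Sult2a8, at 606, is not a member and not drawn.

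The comparison of recipients asks whether the microbiota of penicillin-exposed females carries an effect to a liver that never met the drug. Conjugation enzymes stood higher in LDP recipients than in control recipients in 40 of the 45 members that passed the filter on low counts, where 48.4% of all 12780 genes tested stood higher. The median log2 difference of those 45 members was 0.28, and that of all genes tested was -0.01. Of the GSTs 17 of 18 were higher, of the UGTs 13 of 13 and of the SULTs 10 of 14. Many members are close paralogs, and all were measured in the same 6 recipients, so these counts are not of independent observations. At an unadjusted p under 0.05, edgeR's quasi-likelihood test listed 13 members, each of them higher in LDP recipients, where 2.25% of all genes were listed as higher and 2.86% as lower. The 2 groups did not overlap in 17 members, all higher, where 6.13% of all genes were apart in that direction and 5.56% in the other. At an adjusted p under 0.05, edgeR called 0 members and 1 gene in all (0.00782%), with an adjusted p of 0.846 for each of the 13. DESeq2 called 28 genes (0.219%), of which 2 were members, Gsta3 with an adjusted p of 0.0358 and Ugt1a9 with 0.0273. Over the edgeR alternatives the adjusted p ran from 0.526 to 0.995 for Gsta3 and from 0.545 to 0.971 for Ugt1a9. Leaving out any 1 of the 6 recipients left 35 to 40 of 45 members higher with a median of 0.23 to 0.33. The number at an unadjusted p under 0.05 was 8 without LDP recipient 5.

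The alpha class GSTs, which detoxify products of lipid peroxidation, were higher in LDP recipients in all 3 tested genes, each at an unadjusted p under 0.05. Gsta4, the enzyme best known for conjugating reactive lipid aldehydes, was at 70.8, 71.4 and 67.5 CPM in control recipients 1, 3 and 7 and at 88.3, 93.8 and 113 CPM in LDP recipients 2, 5 and 8. The control recipients were nearly alike and each LDP recipient lay above all of them, a log2 difference of 0.49 with an SE of 0.12 (unadjusted p 0.00301). Gsta3 was at 964, 855 and 1028 CPM in the controls and at 1205, 1478 and 1267 in LDP recipients, again with no overlap (log2 difference 0.47, SE 0.13, unadjusted p 0.00617). Gsta2, a scarce alpha class gene, was at 1.54, 1.47 and 2.63 CPM against 2.42, 4.63 and 5.60, a log2 difference of 1.17. For Gsta2 the groups overlapped, since LDP recipient 2 lay below control recipient 7, and Gsta1, whose coding sequence is 97.9% identical, had 1 to 6 counts per recipient. Reads of such near-identical copies may be split between them by the counting.

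Among the mu class, Gstm2 was at 26.3, 21.8 and 26.9 CPM in control recipients and at 40.6, 35.1 and 31.1 in LDP recipients, with no overlap and a log2 difference of 0.51 (SE 0.14, unadjusted p 0.00566). All 7 Gstm genes were higher in LDP recipients, from 0.01 for Gstm7 to 1.03 for Gstm3, and the abundant Gstm1 differed by 0.39 (524 ± 79.6 against 399 ± 47.6 CPM, SD, n = 3). The Gstm3 difference included control recipient 7 at 0.969 CPM, beside 5.22 and 5.62 in the other two controls. Gstt1, which acts on small halogenated compounds, was at 142 to 157 CPM in LDP recipients and at 119 to 126 in controls. Gstk1, a mitochondrial and peroxisomal GST, was at 99.8 to 122 against 78.9 to 96.0. Neither Gstt1 nor Gstk1 overlapped between the groups, with log2 differences of 0.32 and 0.31. Gsto2 was the only tested GST that was lower, by a log2 difference of -0.07 at under 1 CPM.

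The 4 UGTs at an unadjusted p under 0.05 in recipients included abundant and scarce genes. Ugt1a9, which glucuronidates phenols, was at 198, 216 and 206 CPM in control recipients and at 297, 325 and 253 in LDP recipients, with no overlap (log2 difference 0.50, SE 0.13, unadjusted p 0.00361). Ugt2a3, which acts on bile acids, was at 277, 262 and 236 CPM against 360, 323 and 326, with no overlap (0.38, SE 0.12, unadjusted p 0.0104). Ugt2b5 was at 395, 406 and 397 CPM against 506, 462 and 474, where the control recipients differed among themselves by far less than they did from any LDP recipient (0.27, SE 0.11, unadjusted p 0.0358). Ugt2b37 was at 3.88, 5.89 and 8.17 CPM against 15.9, 12.6 and 7.10. Its log2 difference of 0.98 (SE 0.35, unadjusted p 0.0238) came with overlap, as LDP recipient 8 lay below control recipient 7. Ugt1a1, the bilirubin enzyme, was at 298 ± 46.5 against 275 ± 17.6 CPM, a log2 difference of 0.11 that was within the spread. The Ugt1a genes share their last exons, and Ugt1a9 and Ugt1a10 are 95.7% identical over the coding sequence, so the share of reads that each received depends on the authors' counting.

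Of the 2 SULTs at an unadjusted p under 0.05 in recipients, Sult1c2 had the larger difference. It was at 13.3, 14.2 and 9.42 CPM in control recipients and at 17.9, 26.7 and 19.9 in LDP recipients, with no overlap and a log2 difference of 0.80 (SE 0.20, unadjusted p 0.00310). Sult1a1 was at 508, 473 and 492 CPM against 572, 634 and 664, also with no overlap (0.34, SE 0.11, unadjusted p 0.0149). Sult1b1, which sulfates thyroid hormones, was at 45.3, 33.6 and 31.3 CPM against 46.4, 48.8 and 40.5, with overlap (0.30). Sult1d1 went the other way, at 382, 288 and 341 CPM in controls and at 325, 250 and 239 in LDP recipients, with overlap and a log2 difference of -0.31 (unadjusted p 0.0832). Sult3a1, which sulfates amines, ranged from 31.9 to 203 CPM in LDP recipients and from 33.4 to 78.0 in controls, with LDP recipient 2 alone above the rest.

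**Figure D2:**
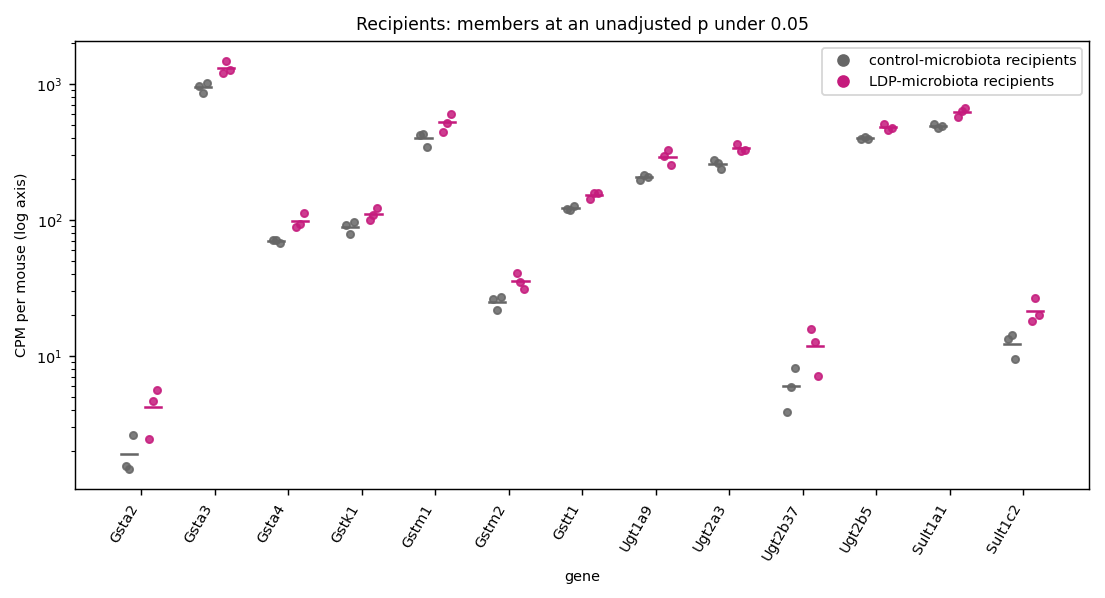
CPM per mouse on a log axis for the 13 members at an unadjusted p under 0.05 in recipients; grey points are control recipients, magenta points LDP recipients and bars the mean of 3 mice. The groups are separate for each gene except Gsta2 and Ugt2b37, as in Gsta4, at 67.5 to 71.4 in controls and 88.3 to 113 in LDP recipients.

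Markers of the cell makeup were measured in the same recipients, and their part in the result was not tested. The 7 hepatocyte markers summed to 162400 to 191700 CPM in LDP recipients and 126300 to 162400 in control recipients, with 4 of 7 higher and 0 of them at 0. With no overlap 2 of the 7 were higher, among them Cyp2e1 (log2 difference 0.23), and 1 was lower, Cps1 (-0.57, unadjusted p 0.00577). Markers of the 5 non-parenchymal lists (cholangiocytes, Kupffer cells, stellate cells, sinusoidal endothelium and mesothelium) had 0 members at an unadjusted p under 0.05. Of 4 pancreas markers only Cela1 passed the filter, at 48.0 ± 7.33 against 28.8 ± 8.05 CPM, and Cpa1 was at 0 in each recipient.

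In treated females the members were divided. Of 42 members tested, 23 were higher and 19 lower in LDP than in control females, where 50.9% of the 12914 genes tested were higher, and the median log2 differences were 0.03 for those members and 0.00 for all genes. At an unadjusted p under 0.05, edgeR's quasi-likelihood test listed 1 member as higher, where 2.69% of all genes were, and 2 as lower, where 1.82% were. The groups did not overlap in 1 member as higher (4.97% of all genes) and in 2 as lower (4.15%). EdgeR called 0 genes at an adjusted p under 0.05 (0.0%) with 582 at an unadjusted p under 0.05, and DESeq2 called 15 genes (0.116%), none of them a member. The number of members at an unadjusted p under 0.05 ran from 1 without control female 29 to 8 without control female 32, and was 5 without control female 30 and 6 without LDP female 54.

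The largest differences in treated females were in the hydroxysteroid sulfotransferases, which sulfate bile acids and steroids such as DHEA and are known as female-biased in mouse liver. All 4 Sult2a genes tested were lower in LDP females, with a median log2 difference of -1.41. Sult2a1 was at 66.0, 19.7 and 124 CPM in control females 29, 30 and 32 and at 19.7, 19.2 and 4.64 in LDP females 39, 52 and 54. Control female 30 and LDP female 39 had almost the same level, so the groups were barely apart, and the log2 difference of -2.26 had an SE of 0.84 (unadjusted p 0.0405, adjusted p 0.999 by edgeR). Sult2a5 was at 1.64, 0.853 and 2.43 CPM against 0.637, 0.829 and 0.234, with control female 30 just above the highest LDP female (-1.51, SE 0.48, unadjusted p 0.0125). Sult2a2 was at 53.6, 27.6 and 106 CPM against 31.2, 32.1 and 12.4, with overlap (-1.30, unadjusted p 0.0813). Summed over Sult2a1 to Sult2a6, control females had 2160, 962 and 4999 counts and LDP females 1301, 1197 and 368. The coding sequences of Sult2a1 and Sult2a2 are 97.9% identical, and those of Sult2a1 and Sult2a5 94.9%, so these genes are not independent measurements. In RefSeq (GRCm38) Sult2a1 lies at chr7:13796246-13837410 and Sult2a5 at chr7:13623967-13670807, in one cluster.

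The same genes in recipients showed no common direction. Sult2a1 was at 148, 156 and 683 CPM in control recipients and at 138, 261 and 266 in LDP recipients, where control recipient 7 stood far above the other 5 mice (log2 difference -0.57, SE 0.65). Sult2a5 was at 8.06, 7.76 and 12.1 against 7.62, 8.51 and 14.2 CPM, with overlap (0.12). Of the 7 Sult2a genes tested in recipients 5 were higher and 2 lower. Sult2a4 and Sult2a6 had 106 to 223 and 270 to 677 counts in each recipient, but 0 to 1 in each C57BL6J female. Strain, colonisation and experiment cannot be told apart in that contrast.

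**Figure D3:**
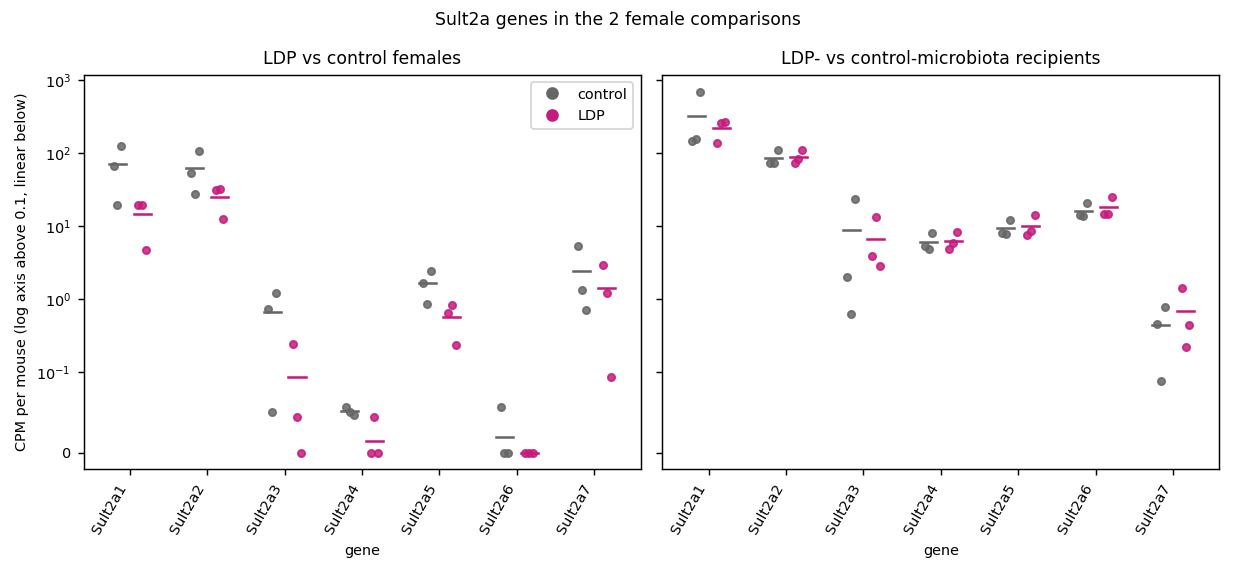
CPM per mouse of the 7 Sult2a genes in treated females (left) and recipients (right), on an axis that is logarithmic above 0.1 CPM and linear below; grey points are controls, magenta points LDP and bars the mean of 3 mice. In females the control means lie above the LDP means, as for Sult2a1 at 69.9 against 14.5, while control female 30 sits at the level of LDP female 39 for Sult2a1.

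Other SULTs of the females differed less. Sult1e1, the estrogen sulfotransferase, was at 2.26, 0.803 and 2.90 CPM in control females and at 0.995, 1.09 and 1.22 in LDP females, with overlap (-0.85, SE 0.41, unadjusted p 0.0693). Sult1c2 was at 7.29, 7.93 and 11.6 CPM against 10.6, 12.8 and 12.1, with control female 32 inside the LDP range (0.40, SE 0.18, unadjusted p 0.0503). Among GSTs, Gstm3 was at 5.20, 6.37 and 8.74 CPM against 10.5, 7.94 and 9.90, with overlap (0.47, SE 0.20, unadjusted p 0.0400). Gsta2 was at 1.30, 1.10 and 3.51 CPM against 4.06, 2.57 and 8.07, with overlap (1.28, SE 0.57, unadjusted p 0.0609). Of the 7 Gstm genes 6 were higher, among them Gstm5 (0.36) and Gstm6 (0.21), and Gstm7 separated the groups at 42.9 to 46.3 against 39.5 to 41.7 CPM (log2 difference 0.14). No UGT reached an unadjusted p of 0.05 in females: the 4 of smallest p were Ugt1a10 (0.71, at under 1 CPM), Ugt2a3 (0.23), Ugt2b1 (0.24) and Ugt3a1 (-0.25), each with overlap.

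LDP female 54 stood apart from the other LDP females in several members. Sult3a1 was at 3.28 CPM in that mouse, from 70 counts, and at 53.1 and 63.8 in LDP females 39 and 52, while control female 32 was also low at 16.7 beside 63.7 and 64.5. Ugt1a5 was at 17.3 CPM in LDP female 54 and at 121 and 106 in the other two, and at 32.8, 103 and 37.7 in controls 29, 30 and 32. Gstt1 was at 214 CPM in LDP female 54 and at 346 to 384 in the other 5 females. Without LDP female 54, 31 of 43 members tested were higher, with a median of 0.10. The sign of that median depended on single mice: it was -0.09 without LDP female 39, with 17 of 43 members higher, and 0.11 without control female 32. Markers of mesothelium, the liver's surface layer, summed to 8.44 to 22.1 CPM in LDP females, highest in LDP female 39, and to 5.28 to 6.42 in controls, with 5 of 5 higher and 0 at 0. Markers of stellate cells summed to 403 to 520 against 352 to 431 CPM, with 5 of 6 higher, 3 at an unadjusted p under 0.05 and 0 at 0. Their part in the results was not tested.

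In treated males the members were close to all genes in the share that was higher and in the median. Of 41 members tested, 23 were higher, where 50.7% of the 15438 genes tested were, and the median log2 differences were 0.04 and 0.00. By family, 7 of 18 GSTs, 10 of 16 UGTs and 6 of 7 SULTs were higher. At an unadjusted p under 0.05, edgeR's quasi-likelihood test listed 5 of the 41 members as higher, where 3.17% of all genes were. It listed 1 as lower, where 2.06% were. The groups did not overlap in 4 as higher (5.69%) and 1 as lower (4.84%). Both counts include Ugt1a2 as higher, and the only lower member in both is Ugt1a7c. Each of these genes passed the filter only through the group where it was high. EdgeR called 0 members and 1 gene in all (0.00648%), and DESeq2 called 42 genes (0.272%), none of them a member. Leaving out 1 male at a time gave medians of the members from -0.0089, without control male 5, to 0.06. The count at an unadjusted p under 0.05 was 9 without LDP male 11, 3 without control male 5 and 1 without LDP male 8.

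Sult1a1 had the smallest p of the members in males. It was at 198, 220 and 214 CPM in control males 5, 6 and 7 and at 336, 231 and 284 in LDP males 8, 10 and 11, with no overlap and a log2 difference of 0.43 (SE 0.13, unadjusted p 0.00856). Sult1c2 was at 3.36, 5.16 and 5.0 CPM against 8.99, 5.97 and 5.88, with LDP male 8 well above the other two (0.62, SE 0.22, unadjusted p 0.0214). Gsta3 was at 804, 1026 and 951 CPM against 1324, 977 and 1345, with LDP male 10 inside the control range (0.39, SE 0.14, unadjusted p 0.0223). Sult1b1 and Sult1d1 differed by 0.09 and 0.13, with overlap, and both turned slightly negative when 1 mouse was left out, Sult1b1 without control male 5 and Sult1d1 without LDP male 8 (-0.025 and -0.026).

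Ugt1a5 was the member of males whose call depended on 1 library. It was at 12.8, 10.9 and 11.7 CPM in control males 5, 6 and 7 and at 20.0, 25.9 and 13.0 in LDP males 8, 10 and 11. LDP male 11 lay just above the controls, so the groups did not overlap (0.73, SE 0.24, unadjusted p 0.0230, adjusted p 0.920 by edgeR). Without LDP male 11 the log2 difference was 0.96 with an adjusted p of 0.0122 by edgeR, and over all 6 omissions the adjusted p ran from 0.0122 to 0.9998. A pair of near-silent genes completed the list. Ugt1a2 had 0, 10 and 8 counts in control males and 25, 18 and 14 in LDP males, and Ugt1a7c had 16, 12 and 12 against 7, 8 and 6 in the same order of mice, with log2 differences of 1.66 and -0.90. In both of them 1 group had no mouse over the minimum count of the filter, so they entered the test through the other group. The other members of smallest p in males were Gstt3 (0.57, with LDP male 8 at 30.8 CPM and the other 5 males at 10.2 to 16.5), Gstt1 (0.27), Gstm4 (-0.21) and Ugt2b34 (0.13), each with overlap. The 6 Kupffer cell markers were all lower in LDP males, 3 of them at an unadjusted p under 0.05. Their sum was 277 to 302 against 322 to 396 CPM, with 0 at 0. The 7 hepatocyte markers summed to 104500 to 112400 CPM in LDP males and 89370 to 100200 in control males. Of these 4 were higher and 3 lower, with 1 higher at an unadjusted p under 0.05. The part of these markers in the results was not tested.

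**Figure D4:**
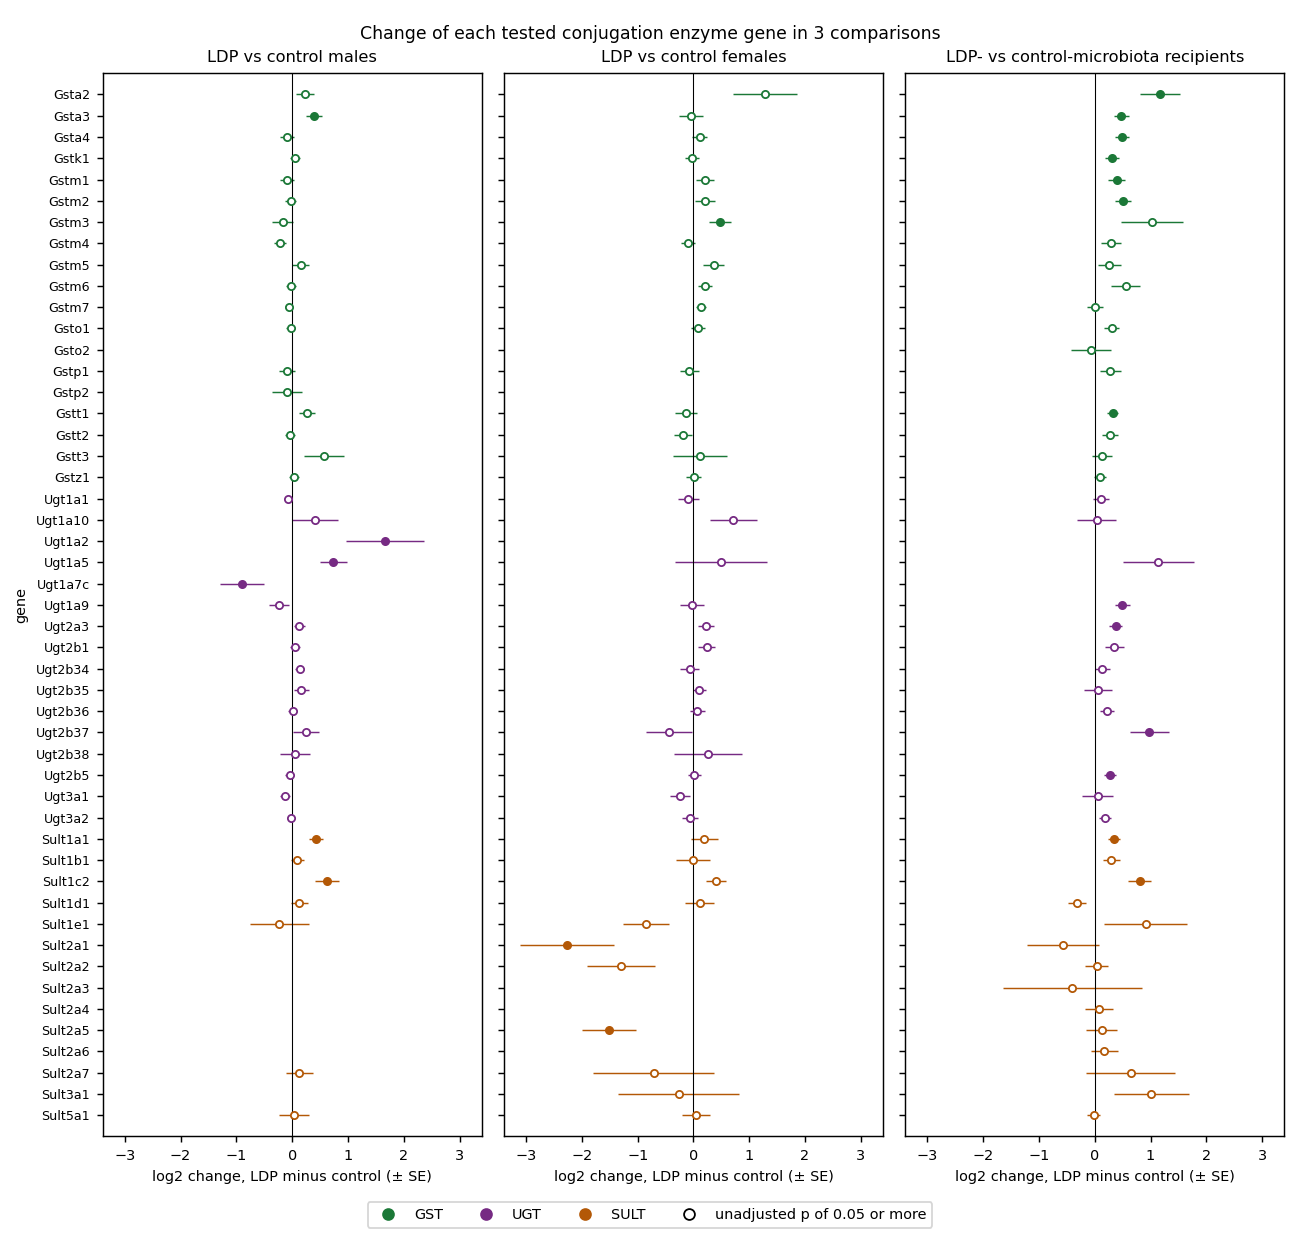
Log2 difference, LDP minus control, of each member tested in males, females and recipients, with its approximate SE; filled points have an unadjusted p under 0.05 and colours mark the families. Points lie on both sides of 0 in males and females, while 40 of 45 lie to the right in recipients.

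Across the 3 comparisons, which share no mouse, Sult1c2 was higher with LDP by 0.62 in males, 0.40 in females and 0.80 in recipients on the log2 scale. Sult1a1 was higher by 0.43, 0.20 and 0.34, and Gsta2 by 0.22, 1.28 and 1.17. Ugt1a5 was higher by 0.73, 0.49 and 1.14, with overlap in females and recipients. Further members, among them Gstt3, Gstm5, Ugt1a10 and Ugt2a3, were also higher in all 3. Some of these differences were far within their SE, as Ugt1a10 in recipients (0.03, SE 0.35) and Gstt3 in females (0.12, SE 0.48). The genes named here were chosen after their values were seen, and the share of all genes higher in all 3 was not counted. Members higher or lower in all 3 were not counted either, so these values do not show agreement beyond that of all genes. Gsta3 was higher by 0.39 in males and 0.47 in recipients and differed by -0.04 in females, where LDP females ran from 838 to 1431 CPM and controls from 999.5 to 1401. Ugt1a9 differed by -0.24, -0.03 and 0.50. None of these passed at an adjusted p under 0.05 by edgeR in any of the 3.

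**Figure D5:**
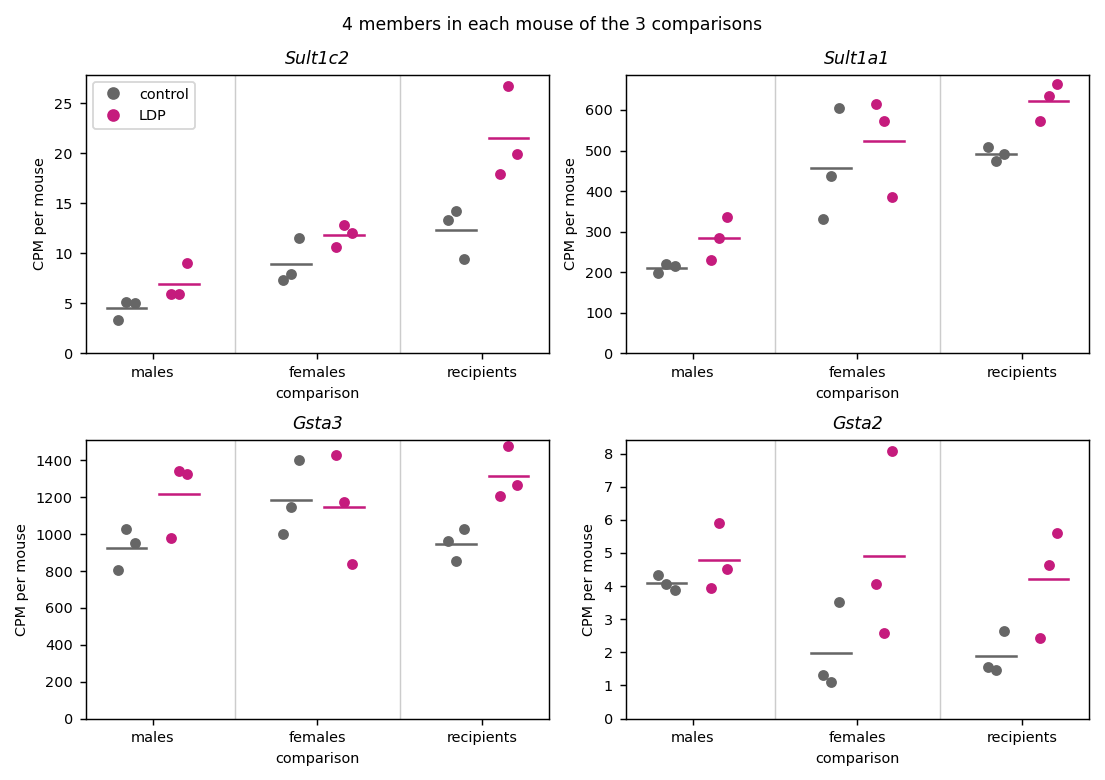
CPM per mouse of Sult1c2, Sult1a1, Gsta3 and Gsta2 in the 3 comparisons; grey points are controls, magenta points LDP and bars the mean of 3 mice, and levels in males come from another count table than those in females and recipients. Sult1c2 means are higher with LDP in each panel section, from 4.50 to 6.94 in males, 8.92 to 11.8 in females and 12.3 to 21.5 in recipients.

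Whether the effects themselves differed was tested directly. For recipients minus treated females, edgeR's quasi-likelihood test called 0 genes (0.0%), and DESeq2 called 12 (0.0903%), none of them a member. Of 46 members tested, 38 had a positive difference of effects (50.3% of all genes), but 5 of the 46 had too few counts to pass the filter in one of the comparisons, among them Sult2a4 and Sult2a6 with 0 to 1 counts in each treated female. Of the 41 members that passed in both, 34 were positive (50.6% of all such genes), with a median of 0.31. Of the 46, 2 had an unadjusted p under 0.05, both positive, where 2.99% of all genes were listed as positive and 2.95% as negative. These were Sult2a5, with a difference of 1.65 (SE 0.60, unadjusted p 0.0168), and Ugt2b37, with 1.44 (SE 0.60, unadjusted p 0.0376), each with an adjusted p of 0.788 by edgeR, and Gsta4 followed at 0.40 (unadjusted p 0.0517). That count was 1 without control recipient 3 or LDP female 54, 4 without control female 29 or LDP recipient 2, 5 without control recipient 7 or LDP recipient 8, 6 without control female 30 and 8 without LDP female 39. This test uses the same mice as the comparisons in females and in recipients and so adds no separate evidence. Recipients and treated females also differed in strain, germ-free rearing and exposure to the drug itself, which cannot be told apart here.

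For females minus males, edgeR called 0 genes (0.0%) and DESeq2 1 (0.00784%). Of 45 members tested, 20 had a positive difference (52.7% of all genes), and 7 of the 45 had too few counts to pass the filter in one sex. These include Sult2a1, Sult2a2, Sult2a3, Sult2a5 and Sult3a1, with almost no counts in males. Of the 38 members that passed in both sexes, 19 were positive (52.5% of all such genes), with a median of 0.0026. Of the 45, 1 had an unadjusted p under 0.05, where 1.48% of all genes did in that direction and 1.22% in the other. It was Gstm3, with a difference of 0.65 (SE 0.30, unadjusted p 0.0490, adjusted p 0.9999 by edgeR). All 7 Gstm genes had a positive difference, from 0.12 to 0.65, and Gstm7 followed at 0.21 (unadjusted p 0.0595). The third by p was Ugt1a2 at -2.18 (unadjusted p 0.0864), on 0 to 25 counts per library. The count was 0 without control male 6, control female 29, control female 30 or any 1 of the LDP males, 2 without control male 5, LDP female 39 or LDP female 52, and 5 without control female 32. Sult2a1 to Sult2a6 cannot be compared between the sexes in this way, since males had almost no counts of them. Each sex has its own count table, with deeper libraries in males, so sex and counting cannot be told apart in this difference.

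Genes that work beside the conjugation enzymes were described from 11 lists. Of the suppliers of cofactors, 0 were at an unadjusted p under 0.05 in females or recipients. In males there were 2, both higher with no overlap: the sulfate carrier Slc26a1 (185 ± 10.5 against 152 ± 13.1 CPM, log2 difference 0.28) and Gclm, a subunit of the enzyme that starts glutathione synthesis (286 ± 12.6 against 255 ± 8.69, 0.17). In recipients the lists of UDP-glucuronic acid, PAPS and glutathione supply had medians of 0.04, 0.02 and 0.01. Of 20 other conjugating and detoxifying enzymes tested in recipients 15 were higher, 2 of them at an unadjusted p under 0.05: the methyltransferase Inmt (478 ± 46.4 against 344 ± 61.1 CPM, 0.48) and the epoxide hydrolase Ephx2, which adds water and attaches no conjugate (846 ± 84.3 against 633 ± 119.8, 0.42). Ephx2 was lower in LDP females, at 561 ± 60.8 against 753 ± 112 CPM, with no overlap (-0.42, unadjusted p 0.0179).

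Of 7 exporters of conjugates tested in recipients 1 was higher and 6 lower, where 48.4% of all genes were higher. Their median was -0.14, with 0 at an unadjusted p under 0.05. Abcg2, a canalicular exporter of sulfate conjugates, was lower with no overlap in LDP males (-0.27, unadjusted p 0.0243) and LDP females (-0.36, unadjusted p 0.0143). Of 7 exporters tested in males 3 were higher and 4 lower, with 1 higher and 2 lower at an unadjusted p under 0.05. In females 2 of 7 were higher and 5 lower, and 1 in each direction had no overlap. Of 4 genes that remove conjugates, the sulfatase Arsa was higher in LDP recipients at 19.6 ± 0.860 against 15.4 ± 0.768 CPM (0.34, unadjusted p 0.0158). Of 14 regulators tested in recipients 5 were higher and 9 lower, with a median of -0.06, and 1 was lower with no overlap (Arnt, the partner of AHR, -0.18). The bile acid receptor Nr1h4 (FXR) was higher with no overlap in LDP recipients (134 ± 2.18 against 109 ± 7.47 CPM, 0.29) and in LDP males (157 ± 8.77 against 136 ± 8.36, 0.21), at unadjusted p of 0.0231 and 0.0232. Targets of the sensing receptors outside the families went different ways in recipients: Cyp2b13 was higher (0.58) and Cyp3a13 lower (-0.68), both with no overlap, and Cyp3a13 was higher in LDP males (0.32). The NRF2 targets had a median of -0.04 in recipients with 0 of 6 at an unadjusted p under 0.05, and the AHR targets a median of -0.11 with 0 of 4. The 5 PPARA targets were all lower in LDP females, 3 at an unadjusted p under 0.05, among them the fatty acid hydroxylases Cyp4a14 (-1.30) and Cyp4a10 (-0.93). None of these genes passed at an adjusted p under 0.05 by edgeR.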

How the data were processed

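RNA came from an RNeasy Mini column and libraries from TruSeq v2 chemistry, per the labels' protocols. The tools in the submitters' processing notes are featureCounts 1.4.3-p1, HTSeq 0.5.3p9, STAR 2.3.0e and DESeq, with the mm10 build and no roles. Strandedness and the treatment of reads matching several genes are not given in the sources used here. The authors deposited raw counts per gene, 1 column per mouse. Of 38924 Ensembl IDs in the male table, 37607 (96.6%) matched a symbol in GENCODE M21 (GRCm38); the female table has 23337 symbols.

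Each comparison used its own 6 libraries, filtered with filterByExpr (minimum count 10, minimum total 15) and scaled by TMM. The test was edgeR's quasi-likelihood test (version 4.0.16, robust fit, R 4.3.3), with p-values adjusted by Benjamini-Hochberg over all genes tested, with a threshold of 0.05. A log2 difference is LDP minus control, and its SE, derived from the F statistic, is approximate. Differences of effects were fitted over 12 libraries with 1 coefficient per group. Alternatives were DESeq2 1.42.0, other scaling factors, other filters, a fit that is not robust, a shared spread and leaving out each mouse.

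Members and lists were chosen with earlier results of these data known. Values per mouse are given for the 4 members of smallest p per family and comparison, and levels for the 3 highest per family in control males. For the differences of effects the 3 members of smallest p are named, and up to 2 genes per related list. Further members shown were chosen after their values were seen. Coding identity is over the longest open reading frames of GENCODE transcripts.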

Additional observations from a re-analysis of the deposited data

How the results depend on the processing

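With 3 mice a group and no member called by edgeR, single values rest on few animals, and members under about 1 CPM on few counts. Paralogs with near-identical sequence depend on the authors' counting. Of 264 recalculations of the 18 main counts and medians, 205 stayed within 1.5 times the value given or within the spread. Of 565 recalculations for 42 results of single genes, 560 kept direction and side of the threshold, 3 were stronger and 2 reversed. None of the 42 results passed the threshold in the main fit, and their genes were picked for a small p. Staying on that side was thus largely fixed beforehand and says little about stability. The cause of the changed results was not tested. No paired analysis was possible because the labels give no litter, cage or donor that links mice of the compared groups.

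The number of genes called was 42 in males, 15 in females, 28 in recipients, 1 for females minus males and 12 for recipients minus females with DESeq2. It was 2, 1 and 2 in males, females and recipients without a filter, and 0 in males and 3 in recipients with 12 libraries sharing the spread. DESeq2 called 2 members in recipients, Gsta3 and Ugt1a9. Members at an unadjusted p under 0.05 numbered 2 in males with 12 libraries sharing the spread, 5 in females with a fit that is not robust, and 4 for recipients minus females with DESeq2. For females minus males they numbered 0 with relative log expression factors, 2 without a filter and 0 with a filter at a mean of 1 CPM.

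Leaving out 1 mouse at a time gave 0 to 66 genes called in males (66 without LDP male 11), 0 to 1 in females, 0 to 4 in recipients, 0 to 1 for females minus males and 0 to 3 for recipients minus females. Members called in males ran from 0 to 1. Members at an unadjusted p under 0.05 ran from 1 to 9 in males, 1 to 8 in females, 8 to 16 in recipients, 0 to 5 for females minus males and 1 to 8 for recipients minus females. The recipients' median ran from 0.23 to 0.33, the females' from -0.09 to 0.11 and the males' from -0.0089 to 0.06. In males the difference of Sult1b1 ran from -0.025 (without control male 5) to 0.21, and that of Sult1d1 from -0.026 (without LDP male 8) to 0.20.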
